A study of Penicillium oxalicum with 15 samples.

Results

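The question was whether the effect of a ClrB mutant on the transcriptome of the filamentous fungus Penicillium oxalicum depended on the carbon source. Each gene was described by an interaction, the difference between gClrBID and M12 on cellulose minus the same difference on glucose. An interaction was estimated for 8765 of the 9976 genes in the deposited table, those with at least 1 FPKM (fragments relative to gene length and library total) in at least 3 of the 15 libraries. M12 is the reference strain, and gClrBID is labelled as overexpressing an internal mutant of ClrB, with no further detail of the mutation. No strain in the series overexpresses unaltered ClrB, so the mutation and the overexpression cannot be told apart. Per the labels, mycelia of each strain grew for 22 h with 2% glucose in Vogel's medium and were moved for 4 h to Vogel's medium with 2% (w/v) glucose or 2% (w/v) cellulose, at 30 °C and 200 rpm, so that the cellulose cultures had also been raised on glucose. The 4 groups compared were M12 and gClrBID on each carbon source, with 3 libraries each. A creA deletion strain on cellulose, with 3 further libraries, entered the fit for its share in the estimate of the spread. The promoter that drives the mutant gene, whether its native copy was kept and how many transformants were used are not given in the sources used here. The series text calls the libraries biological triplicates and says no more of the cultures, so the tests speak for the spread among these libraries, which may be technical in part.

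Fungi that live on plant litter secrete cellulases when soluble fragments of cellulose reach the cell, and they keep these genes silent on glucose. ClrB is a zinc cluster activator of cellulase genes, and CreA is the zinc finger repressor that shuts off genes for other carbon sources while glucose is present. Cellodextrins taken up by sugar transporters signal the presence of cellulose, and intracellular beta-glucosidases cleave them. A mutant activator that works without this signal would act on glucose as well, and an interaction measures how far its effect differs from that in an inducing medium.

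Fragments worked back from the FPKM values numbered 10129678 to 17911055 per library in the 4 groups. Pearson's r between replicates, across genes on the log scale, lay between 0.992 and 0.997. The median standard deviation between replicates was 0.0738 to 0.0956 on the log2 scale, and it was highest in gClrBID on cellulose. Names are given for 15 locus tags from knowledge of the species, since neither the deposited table nor the RefSeq gene list of strain HP7-1 pairs these tags with names. creA (PDE_03168) was at 0.0530 ± 0.0524 FPKM (SD, n = 3) in the creA deletion strain and at 434 ± 33.9 in M12 on cellulose. No sequence of these genes was used here.

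The strain effect differed between the carbon sources for most genes. The interaction was called, with a Benjamini-Hochberg adjusted p under 0.05, for 5972 genes, which is 68.1% of those tested. It was more positive on cellulose for 4208 genes (48.0%) and more negative for 1764 (20.1%). At a minimum of 2-fold, 1425 genes (16.3%) were more positive and 625 (7.13%) more negative. The median interaction of all tested genes was 0.26 on the log2 scale, and median-of-ratios scaling, which centres the libraries on the typical gene, moved it by -0.217. With that scaling the calls were 2923 more positive and 2613 more negative, or 1123 and 815 at a minimum of 2-fold. Of the 1425 genes more positive by at least 2-fold 1123 (78.8%) were shared between the scalings, and of the 625 more negative ones 624 (99.8%). No gene was called in opposite directions by the 2 scalings. Both use the same libraries and differ only by a factor for each library. Shared calls were thus favoured and do not test the interactions.

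The strain effect of gClrBID was wider on glucose than on cellulose. The standard deviation of the strain effect over all tested genes was 1.15 on glucose and 0.708 on cellulose (log2). A strain effect was called for 71.8% of the genes on glucose, 17.0% higher and 54.7% lower in gClrBID, and for 59.4% on cellulose, 27.3% higher and 32.1% lower. With median-of-ratios scaling the balance on glucose was 2977 genes higher and 2920 lower, and on cellulose 2861 higher and 2428 lower. A strain effect of at least 2-fold was called for 1771 genes (20.2%) on glucose and for 872 (9.95%) on cellulose. Across the 8765 genes the 2 effects, which share no library, had a Pearson's r of 0.313 and a Spearman's rho of 0.206. Genes are not independent replicates, and the effects share the strains.

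**Figure D1:**
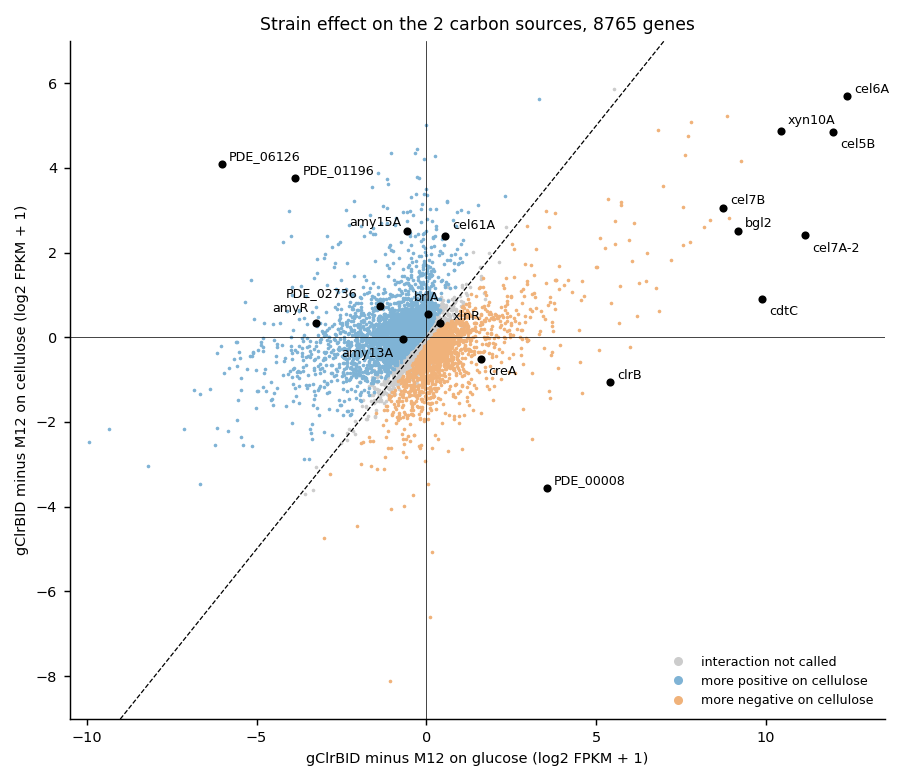
Strain effect of gClrBID on cellulose (vertical axis) against that on glucose (horizontal axis), both as differences of mean log2(FPKM + 1), for the 8765 tested genes. Points on the dashed line have equal effects, colours give the interaction call at an adjusted p under 0.05, and the named genes are in black. The cellulase genes other than cel61A, bgl2 and cdtC lie far to the right of the line, cel61A lies to its left, and PDE_06126, PDE_01196 and PDE_00008 lie in the quadrants of opposite sign.

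Genes that were much higher in gClrBID on glucose were mostly higher on cellulose too. Among the 98 genes higher by more than 3 on the log2 scale on glucose, the median effect was 4.57 on glucose and 1.28 on cellulose, and 78 (79.6%) were called higher on cellulose against 27.3% of all tested genes. Among the 192 genes lower by more than 3 on glucose, the median effect was -3.81 on glucose and -0.55 on cellulose, and 120 (62.5%) were called lower on cellulose against 32.1% of all. These genes were grouped by their effect on glucose, so their glucose medians are set by the grouping. It also favours smaller medians on cellulose, so the difference in size between the medians is not a result.

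The calls on the 2 carbon sources were then read together. Among the genes with a called interaction, 1930 had a strain effect called on glucose and not on cellulose, and 991 the reverse. In 1554 of the 1930 genes (80.5%) gClrBID was lower than M12 on glucose, against 76.3% of all genes with a strain effect called on glucose. With median-of-ratios scaling it was lower in 862 of 1671 (51.6%), against 49.5% of all those called. The effect had the same direction on both carbon sources in 1395 genes, and it was smaller on cellulose in 1067 and larger in 328 of these. The sign of the effect turned in 1566 genes. In 1109 of them gClrBID was lower on glucose and higher on cellulose, and in 457 it was higher on glucose and lower on cellulose. The balance of the turned genes moved with the scaling, to 684 and 692 with median-of-ratios scaling, of which 576 and 386 were shared with the first count. A further 90 genes had a called interaction with neither strain effect called.

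**Figure D2:**
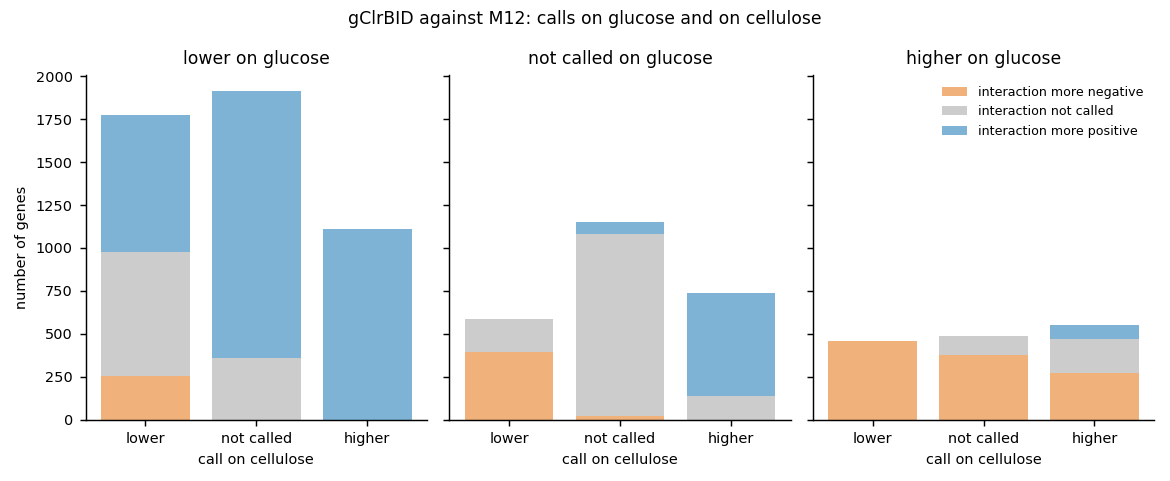
Number of genes by the call of gClrBID against M12 on glucose (panels) and on cellulose (bars), with the interaction call as colour, at an adjusted p under 0.05 over 8765 genes. The bar of genes lower on glucose and higher on cellulose holds 1109 genes with a called interaction, and that of genes higher on glucose and lower on cellulose holds 457.

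An interaction can arise in any of the 4 groups, so the group whose mean lay farthest from the other 3 was found for each gene, as the group without which the other means had the smallest range. Among the 1425 genes more positive by at least 2-fold, gClrBID on glucose stood apart as the low group in 657 (46.1%) and M12 on glucose as the high group in 475 (33.3%). gClrBID on cellulose was the high group in 220 (15.4%) and M12 on cellulose the low group in 73 (5.12%). A glucose group was thus the one named for most of these genes. The rule names a group for every gene with no minimum distance, so it does not show where an interaction arose. It also ties the side of each group, high or low, to the sign of the interaction, so the sides are not a result. Among the 625 genes more negative by at least 2-fold, M12 on cellulose was the high group in 205 (32.8%), M12 on glucose the low group in 204 (32.6%) and gClrBID on glucose the high group in 182 (29.1%). gClrBID on cellulose was the low group in 34 (5.44%). With median-of-ratios scaling gClrBID on glucose led in both directions, with 480 of 1123 genes (42.7%) as the low group and 289 of 815 (35.5%) as the high group.

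**Figure D3:**
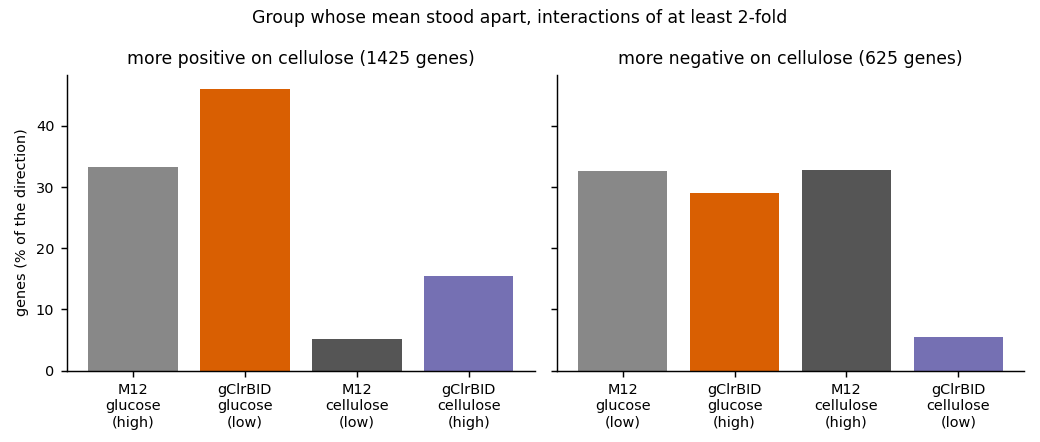
Share of genes by the group whose mean log2(FPKM + 1) stood apart from the other 3, for called interactions of at least 2-fold. The left panel holds the 1425 genes more positive on cellulose and the right panel the 625 more negative ones. The words high and low give the side on which the group lay, which the sign of the interaction sets. gClrBID on glucose as the low group holds 46.1% of the left panel.

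Of the 16 listed tags, which cover enzymes, cellodextrin uptake and regulators, 15 (93.8%) had a called interaction against 68.1% of all tested genes. At a minimum of 2-fold there were 13 (81.2%) against 23.4%, with 9 more negative and 4 more positive on cellulose. One of the 4 was cel61A, whose direction changed with the setting, and without it 12 of 15 tags (80.0%) passed, with 9 more negative and 3 more positive. Their median interaction was -3.83, and that of all tested genes 0.26. Earlier results of these data were known when the tags were listed, so these shares describe the list and do not test it.

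**Figure D4:**
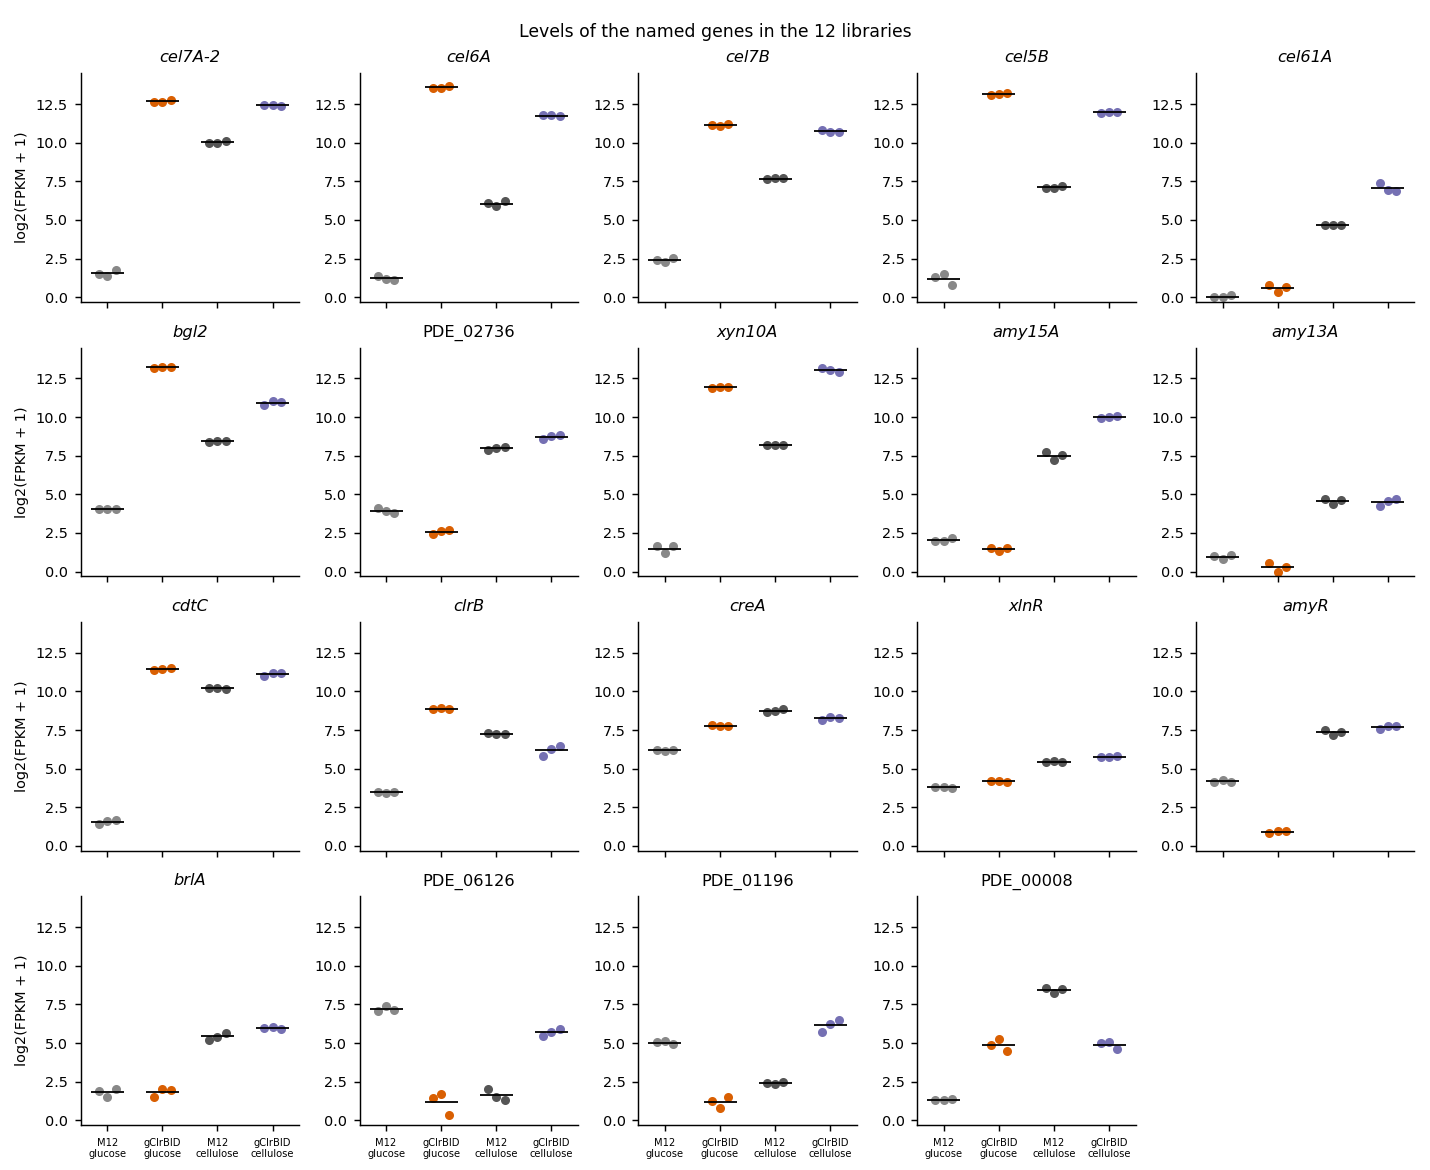
Level of the 16 listed tags and of 3 further genes in the 12 libraries of M12 and gClrBID, as log2(FPKM + 1). Points are libraries, 3 per group, and lines are group means. In the panels of cel7A-2, cel7B and cdtC both gClrBID groups lie near the same height, while the M12 groups lie far apart.

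The uptake and cleavage of cellodextrins came first. cdtC (PDE_00607), which encodes a cellodextrin transporter, had the most negative interaction of the genes ranked by the named-gene rule. On glucose its level was 1.65, 2.06 and 2.24 FPKM in M12 and 2716, 2839 and 2894 FPKM in gClrBID. On cellulose it was 1181, 1211 and 1145 FPKM in M12 and 2040, 2293 and 2294 FPKM in gClrBID. The groups did not overlap on either carbon source, and the M12 libraries on cellulose were already within a few-fold of both gClrBID groups. gClrBID held 1420 times the level of M12 on glucose and 1.87 times on cellulose, and the interaction was -8.98 ± 0.10 (SE, adjusted p = 2.0e-18).

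bgl2 (PDE_00579), which encodes an intracellular beta-glucosidase, behaved in the same direction from a higher base. On glucose M12 stood at 15.6, 15.5 and 15.8 FPKM and gClrBID at 9303, 9654 and 9845 FPKM. On cellulose M12 stood at 333, 350.2 and 342 FPKM and gClrBID at 1764, 2082 and 2022 FPKM. The level in gClrBID was thus 4.91 times higher on glucose than on cellulose, and the interaction was -6.66 ± 0.08 (SE, adjusted p = 6.5e-18). The other tag of the beta-glucosidase list, PDE_02736, went the other way. It was at 16.3, 14.3 and 12.9 FPKM in M12 and 4.49, 5.19 and 5.32 FPKM in gClrBID on glucose, and at 231, 257 and 264 FPKM in M12 and 379, 431 and 449 FPKM in gClrBID on cellulose. gClrBID was the lower group on glucose and the higher on cellulose, without overlap, and the interaction was 2.10 ± 0.13 (SE, adjusted p = 1.3e-09).

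Among the cellulases, the 2 listed genes for cellobiohydrolases, which release cellobiose from chain ends, had negative interactions. cel7A-2 (PDE_07945) stood at 1.84, 1.53 and 2.41 FPKM in M12 and 6471, 6474 and 6844 FPKM in gClrBID on glucose. On cellulose it stood at 997, 1031 and 1109 FPKM in M12 and 5586, 5691 and 5346 FPKM in gClrBID. The gClrBID levels on the 2 carbon sources differed by 1.19-fold, while the ratio of gClrBID to M12 fell from 3422 on glucose to 5.30 on cellulose, with an interaction of -8.74 ± 0.11 (SE, adjusted p = 8.9e-18). cel6A (PDE_07124) stood at 1.63, 1.28 and 1.14 FPKM in M12 and 12208, 12168 and 13330 FPKM in gClrBID on glucose. On cellulose the values were 66.5, 58.4 and 73.3 FPKM in M12 and 3491, 3512 and 3331 FPKM in gClrBID. Here the gClrBID libraries on glucose were the highest of the 12, 3.65 times above those on cellulose in the mean, and the interaction was -6.70 ± 0.12 (SE, adjusted p = 2.6e-16).

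The listed endoglucanase genes, for enzymes that cut within cellulose chains, followed the same order of groups as cel6A. cel5B (PDE_09226) stood at 1.51, 1.798 and 0.691 FPKM in M12 and 8754, 9224 and 9717 FPKM in gClrBID on glucose. In cellulose cultures it stood at 134, 136 and 145 FPKM in M12 and 3937, 4098 and 4018 FPKM in gClrBID. cel7B (PDE_07929) stood at 4.40, 3.92 and 4.86 FPKM in M12 and 2257, 2216 and 2384 FPKM in gClrBID on glucose, and at 199, 205 and 208 FPKM in M12 and 1788, 1692 and 1628 FPKM in gClrBID on cellulose. In each gene the 4 groups were free of overlap, with gClrBID on glucose highest and M12 on glucose lowest. The interactions were -7.13 ± 0.18 for cel5B (adjusted p = 2.4e-14) and -5.68 ± 0.08 for cel7B (adjusted p = 2.9e-17, SE).

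cel61A (PDE_05633), for a lytic polysaccharide monooxygenase that cleaves cellulose by oxidation, differed from the other 4 cellulase genes. On glucose it was at 0, 0 and 0.0880 FPKM in M12, on 0, 0 and 1 fragments, and at 0.695, 0.263 and 0.612 FPKM in gClrBID, on 7, 2 and 6 fragments. On cellulose it was at 24.5, 24.1 and 25.03 FPKM in M12 and 170, 122 and 113.8 FPKM in gClrBID. Its level on glucose stayed near the floor in both strains, and no ratio is given there. The interaction of 1.84 ± 0.18 (SE, adjusted p = 2.2e-07) rests on the pseudocount. It was 0.18 (adjusted p = 0.69) with a pseudocount of 0.1 and -0.87 (adjusted p = 0.57) with voom weights on the fragments, so its direction is not set by these data. The adjusted p ranged from 7.7e-08 to 0.69 over the alternatives.

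xyn10A (PDE_08094), for a secreted xylanase, separated ratios from amounts. On glucose it stood at 2.08, 1.27 and 2.14 FPKM in M12 and 3784, 3890 and 3937 FPKM in gClrBID. With cellulose the level was 287, 287 and 293 FPKM in M12 and 9123, 8503 and 7872 FPKM in gClrBID. The ratio of gClrBID to M12 was 2116 on glucose and 29.4 on cellulose, and the interaction was -5.56 ± 0.13 (SE, adjusted p = 1.6e-14). The difference in level was nevertheless larger on cellulose, at 8210 FPKM against 3869 FPKM on glucose. For cel6A it was 3379 FPKM on cellulose and 12567 on glucose, and for cel7A-2 4495 and 6594. A sign of the difference in FPKM opposite to that of the interaction was found in 19 of the 625 genes more negative by at least 2-fold (3.04%) and in 80 of the 1425 more positive ones (5.61%).

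The 10 listed enzyme genes together held 5.99, 6.10 and 6.45% of the fragments in gClrBID on glucose and 3.83, 3.84 and 3.67% in gClrBID on cellulose. In M12 they held 0.00884, 0.00803 and 0.00808% on glucose and 0.408, 0.409 and 0.435% on cellulose. The 5 cellulase genes made up 4.31 ± 0.193% of the fragments in gClrBID on glucose and 2.14 ± 0.0532% on cellulose (SD, n = 3 each). Summed over the genes, the transcripts thus took a larger share on glucose than on cellulose in gClrBID, without overlap between libraries. In M12 the summed share was smaller on glucose. The sum in gClrBID does not hold for each gene, since xyn10A, cel61A, PDE_02736, amy15A and amy13A were lower on glucose than on cellulose there.

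**Figure D5:**
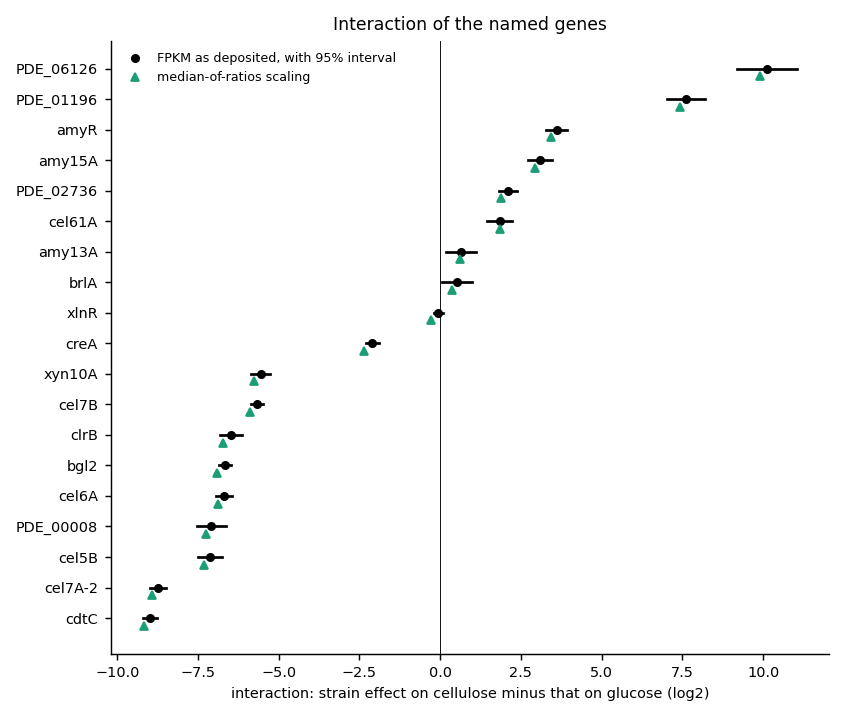
Interaction of the named genes, the strain effect on cellulose minus that on glucose in log2 units. Black points are values from FPKM as deposited, with 95% intervals, and green triangles are values with median-of-ratios scaling. cdtC lies lowest at -8.98 and PDE_06126 highest at 10.12, and the interval of xlnR spans 0.

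Amylolytic genes and their regulator amyR had positive interactions. amyR (PDE_03964) encodes the zinc cluster activator of amylase genes. It stood at 16.9, 17.9 and 16.3 FPKM in M12 and 0.768, 0.965 and 0.913 FPKM in gClrBID on glucose, on 18 to 22 fragments per gClrBID library. On cellulose the level was 180, 144 and 167 FPKM in M12 and 185, 218 and 218 FPKM in gClrBID. gClrBID was the low group on glucose, and on cellulose each gClrBID library was above each M12 library. The interaction was 3.603 ± 0.15 (SE, adjusted p = 7.5e-12), and it was 3.44 with median-of-ratios scaling. With gClrBID below 1 FPKM on glucose the value depended on the pseudocount, and it rose to 4.47 when 0.1 was added in place of 1. voom weights on the fragments gave 4.60, which is 1.99 times larger on the linear scale.

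amy15A (PDE_09417), for a glucoamylase, which releases glucose from starch, stood at 2.98, 2.98 and 3.42 FPKM in M12 and 1.87, 1.55 and 1.84 FPKM in gClrBID on glucose. In the cellulose libraries it was at 211, 147 and 182 FPKM in M12 and 961, 1021 and 1066 FPKM in gClrBID. The order of the strains turned between the carbon sources, with no overlap on either, and the interaction was 3.09 ± 0.18 (SE, adjusted p = 3.6e-10). amy13A (PDE_01201), for an alpha-amylase, stood at 0.999, 0.772 and 1.09 FPKM in M12 and 0.475, 0 and 0.203 FPKM in gClrBID on glucose, the latter on 12, 0 and 5 fragments. On cellulose its libraries overlapped, at 24.6, 19.3 and 23.9 FPKM in M12 and 17.8, 23.0 and 25.4 FPKM in gClrBID. Its interaction of 0.64 ± 0.22 (SE, adjusted p = 0.015) came from low glucose values, and the alternatives gave 0.51 to 2.56 (adjusted p from 0.0037 to 0.046).

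The regulators of cellulase genes were measured next. clrB (PDE_05999) stood at 10.4, 9.75 and 9.996 FPKM in M12 and 465, 488 and 456 FPKM in gClrBID on glucose. On cellulose it stood at 160, 148 and 150 FPKM in M12 and 56.0, 76.2 and 88.8 FPKM in gClrBID. The overexpressing strain thus had the higher clrB level on glucose and the lower on cellulose, without overlap, and the interaction was -6.48 ± 0.16 (SE, adjusted p = 1.7e-14). Transcripts of a native and an introduced copy cannot be told apart in these values. The strain effects of the enzyme genes on the 2 carbon sources were thus measured at a mean clrB level that was 6.37 times higher in gClrBID on glucose than in gClrBID on cellulose, and the part of this difference in the interactions was not tested.

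creA stood at 71.9, 68.7 and 73.3 FPKM in M12 and 224, 213 and 217 FPKM in gClrBID on glucose. On cellulose the values were 407, 423 and 472 FPKM in M12 and 277, 329 and 311 FPKM in gClrBID. The repressor gene was thus higher in gClrBID than in M12 on glucose and lower on cellulose, with an interaction of -2.10 ± 0.09 (SE, adjusted p = 2.2e-11).

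xlnR (PDE_07674), for the zinc cluster activator of xylanase genes, was the listed tag with no called interaction. On glucose it stood at 13.03, 12.8 and 12.6 FPKM in M12 and 17.3, 17.2 and 16.5 FPKM in gClrBID. In cellulose cultures it stood at 41.9, 43.2 and 41.4 FPKM in M12 and 52.6, 52.9 and 54.4 FPKM in gClrBID. gClrBID was higher by 1.33-fold on glucose and by 1.26-fold on cellulose, without overlap on either. The interaction was -0.05 ± 0.07 with a 95% interval of -0.20 to 0.09 (SE, adjusted p = 0.49). With median-of-ratios scaling it was -0.28 and was called (adjusted p = 0.0014).

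brlA (PDE_00087), for a regulator of conidiation, was the developmental marker among the tags. On glucose it stood at 2.64, 1.90 and 3.003 FPKM in M12 and 1.90, 3.12 and 2.89 FPKM in gClrBID, which overlapped. With cellulose the level was 35.3, 41.4 and 50.2 FPKM in M12 and 62.8, 65.5 and 58.5 FPKM in gClrBID, without overlap. Its interaction of 0.51 ± 0.21 (SE, adjusted p = 0.045) was lost under 15 of 22 alternatives, with adjusted p from 0.014 to 0.58. Median-of-ratios scaling gave 0.35 (adjusted p = 0.17), and replicate number as a block left an adjusted p of 0.055. In the 7 fits that lost the call when 1 library was left out, the adjusted p was 0.083 and 0.12 without replicates 1 and 3 of M12 on glucose, and 0.13 without replicate 1 of gClrBID on glucose. It was 0.12 and 0.073 without replicates 1 and 2 of M12 on cellulose, and 0.069 and 0.088 without replicates 1 and 2 of gClrBID on cellulose.

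The sign of the strain effect turned with at least 2-fold on each carbon source in 93 genes that reached a mean of 10 FPKM in at least 1 of the 4 groups. In 67 of them gClrBID was lower on glucose and higher on cellulose, with a median level of 11.7 FPKM in M12 and 1.78 in gClrBID on glucose, and of 12.9 in M12 and 72.3 in gClrBID on cellulose. In the other 26 gClrBID was higher on glucose and lower on cellulose, with medians of 4.72 and 30.4 FPKM on glucose and 131 and 34.2 FPKM on cellulose in M12 and gClrBID. These medians describe genes picked for their turn. Of the 67 genes 53 (79.1%) and of the 26 genes 26 were shared with the median-of-ratios scaling, which found 58 and 33. The minimum of 10 FPKM was applied to this count after the values were seen. Without it there were 71 and 27 genes. A pseudocount of 0.1 raised these numbers by 1.61 and 1.52 times, and voom raised them to 109 and 40, or to 104 and 48 when joined to median-of-ratios scaling.

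PDE_06126, for which no name is given in the sources used here, had the largest interaction of the genes ranked. It stood at 136, 165 and 141 FPKM in M12 and 1.71, 2.27 and 0.293 FPKM in gClrBID on glucose. On cellulose the level was 3.09, 1.82 and 1.44 FPKM in M12 and 43.4, 52.1 and 57.7 FPKM in gClrBID. M12 carried the transcript on glucose and gClrBID on cellulose, with an interaction of 10.12 ± 0.43 (SE, adjusted p = 1.2e-11). The low values of PDE_06126 rest on 6, 6 and 1 fragments in gClrBID on glucose and 11, 7 and 6 in M12 on cellulose, and its interaction was 11.53 when 0.1 was added in place of 1 and 11.49 under voom. PDE_01196 turned in the same direction, but its highest group was gClrBID on cellulose and not M12 on glucose. It stood at 32.0, 33.7 and 29.5 FPKM in M12 and 1.32, 0.725 and 1.88 FPKM in gClrBID on glucose. On cellulose it was at 4.34, 3.98 and 4.58 FPKM in M12 and 52.6, 74.2 and 90.1 FPKM in gClrBID, with an interaction of 7.61 ± 0.27 (SE, adjusted p = 1.5e-12).

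Among the 26 genes that turned from higher on glucose to lower on cellulose, PDE_00008 had the most negative interaction, followed by clrB. PDE_00008 stood at 1.53, 1.47 and 1.54 FPKM in M12 and 28.3, 36.8 and 21.4 FPKM in gClrBID on glucose. In the cellulose libraries it was at 379, 299 and 363 FPKM in M12 and 30.5, 31.8 and 23.8 FPKM in gClrBID. The gClrBID libraries overlapped between the carbon sources, with means of 28.8 and 28.7 FPKM, while M12 went from the lowest to the highest level. The interaction was -7.09 ± 0.21 (SE, adjusted p = 1.7e-13).

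Both PDE_01196 and PDE_00008 lay in runs of consecutive tag numbers. A run was counted where 5 or more consecutive tags had called interactions of at least 2-fold in the same direction. There were 12 such runs with 75 genes among the more positive interactions, of up to 11 genes, and 2 runs with 11 genes among the more negative ones. The order of the tags along the chromosomes was not checked, since no genome of this strain was used here. In the 6 tags from PDE_01191 to PDE_01196 the interaction lay between 1.72 and 7.61. All 6 were called higher in gClrBID on cellulose, against 27.3% of all tested genes. On glucose 5 were called lower, against 54.7% of all, and PDE_01191 higher. PDE_01193 and PDE_01195 were low there, at 1.32 and 2.37 FPKM in M12 and 0.624 and 0.633 FPKM in gClrBID. Runs were picked for interactions in the same direction, which favours such calls. In the 6 tags from PDE_00007 to PDE_00012 the interaction lay between -7.09 and -1.14. All 6 were called lower in gClrBID on cellulose, against 32.1% of all tested genes. PDE_00008, PDE_00009 and PDE_00010 were higher by 3.54, 3.09 and 4.59 on the log2 scale on glucose. PDE_00011 was also called higher there, by 0.35, at 0.823 FPKM in M12 and 1.32 in gClrBID. PDE_00007 and PDE_00012 were not called on glucose. The runs were found after the values were seen and are given without a test.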

How the data were processed

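The authors deposited 1 table of FPKM values for 9976 genes in 15 libraries. Per the labels, these came from captured mRNA with a stranded kit. The tools listed per the submitters' processing notes are HISAT2 2.0.0, CASAVA 1.8, DESeq2 and featureCounts 1.5.0-p1, without their roles. Build, gene annotation and the counting's use of strand are not given in the sources used here, so fragments shared by near-identical or overlapping genes could not be assessed.

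Whole fragments were worked back from the FPKM values with a tolerance of 5.1e-05 FPKM, and all 9789 genes above 0 gave whole numbers. In a first search the gene lengths checked, those of genes of middling level, were all multiples of 3. The final search was limited to such lengths. Another 187 genes were at 0 throughout. limma 3.58.1 (R 4.3.3) was used to fit interactions and strain effects to log2(FPKM + 1), with 1 mean per group over 5 groups of 3, moderated variances with an intensity trend and Benjamini-Hochberg adjustment over 8765 genes. Differences on this scale understate changes of genes near 0. On simulated data of 8765 genes without strain effects a 2-fold interaction was recovered in 99% of 100 genes and a 1.5-fold one in 89% of another 100. Of the unchanged genes 12 (0.14%) were called. The changed genes were drawn from those with at least 100 expected fragments in each of the 4 groups. The shares do not speak for genes with fewer, such as cel7A-2, cel6A, cel5B, xyn10A and cdtC in M12 on glucose. No other genes changed, so the simulation does not speak for the shift between the scalings. The members and lists were chosen with earlier results of these data known. Named genes were the 16 listed tags, the 2 most positive and 2 most negative called interactions with a mean of at least 10 FPKM in 1 of the 4 groups and the same sign under both scalings, and the 2 largest interactions in each direction among genes whose sign turned with at least 2-fold on each carbon source. cdtC, cel7A-2, clrB, PDE_06126 and PDE_01196 were each named by more than 1 part of this rule. The alternatives were other pseudocounts, filters, scalings, variance models, sets of libraries and a replicate block. voom weights with median-of-ratios scaling was added after seeing the data.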

Additional observations from a re-analysis of the deposited data

Results flagged for a closer look

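For the genes given here the effect of gClrBID differed between the carbon sources by a test of the difference itself, the interaction at an adjusted p under 0.05 (limma), which 68.1% of all tested genes passed. cdtC, cel7A-2, clrB and the genes without a name that are given last were picked for the size of a called interaction, so their calls were fixed by the choice. Those of cel61A and brlA were lost under some alternatives. The effect on cellulose minus that on glucose, in log2 units, was -8.74 for cel7A-2, -6.70 for cel6A, -5.68 for cel7B, -7.13 for cel5B and 1.84 for cel61A. It was -6.66 for bgl2, 2.10 for PDE_02736, -5.56 for xyn10A and -8.98 for cdtC. It was 3.09 for amy15A, 0.64 for amy13A and 3.603 for amyR. Among the other regulators it was -6.48 for clrB, -2.10 for creA and 0.51 for brlA. Among genes without a name it was 10.12 for PDE_06126, 7.61 for PDE_01196 and -7.09 for PDE_00008. Groups of 3 libraries are too small for a check of outlying libraries.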

How the results depend on the processing

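Of the 19 named genes 16 kept the direction and the call of their interaction under all 22 alternatives. The exceptions were cel61A, xlnR and brlA. The interaction of cel61A was -0.87 with voom weights on the recovered fragments and -1.12 when these fragments were also scaled by median of ratios, neither called. Its values near 0 on glucose are where the pseudocount acts. Of 17 counts of calls 12 stayed within 1.5 times under every alternative. The 67 genes that turned from lower on glucose to higher on cellulose by at least 2-fold each are among these 12 counts only with the minimum of 10 FPKM. That minimum was applied after the values were seen. Without it this count rose by 1.61 times with a pseudocount of 0.1 and by 1.54 times with voom weights. On glucose the genes called higher and lower in gClrBID, 1493 and 4797, became 2977 and 2920 with median-of-ratios scaling and 2998 and 2827 when that scaling was joined to voom. Turned genes, 1109 lower on glucose and higher on cellulose and 457 the reverse, became 684 and 692, and 684 and 693, under these 2 settings. The 26 genes that turned from higher on glucose to lower on cellulose by at least 2-fold each became 43 when both were joined. The cause of these moves was not tested. Leaving out each of the 12 libraries in turn gave 3983 to 4184 more positive and 1684 to 1749 more negative interactions.

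Replicate numbers showed no sign of pairing the libraries, though such correlations cannot exclude it. Deviations of the 18 same-numbered pairs correlated by -0.097 to 0.076, and those of the 36 differently numbered pairs by -0.079 to 0.116. With the replicate block 4195 interactions were more positive and 1757 more negative, and among the named genes the call of brlA alone was lost (adjusted p = 0.055). Depth limits cel61A and amy13A on glucose, which rest on at most 33 fragments per library, and PDE_06126 in gClrBID on glucose and M12 on cellulose, with at most 11. Low groups of other named genes also rest on few fragments, which limits their ratios. In M12 on glucose these were 33, 40 and 13 for cel5B, 40, 32 and 24 for cel6A, and 45, 28 and 40 for xyn10A. They were 38, 37 and 33 for PDE_00008, 48, 61 and 56 for cdtC, and 53, 45 and 60 for cel7A-2. In gClrBID on glucose they were 19, 18 and 22 for amyR and 41, 17 and 57 for PDE_01196. The interactions of 11 named genes moved by more than 1.5 times on the linear scale under at least 1 alternative, in each case a pseudocount of 0.1 or voom weights. Apart from cel61A they became larger in size, up to -9.82 for cdtC, -9.60 for cel7A-2, -8.19 for cel5B, -8.02 for PDE_00008, -7.71 for cel6A, -6.45 for xyn10A and 8.66 for PDE_01196.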
